A study of Mus musculus with 23 samples.

Results

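Melanomas given pentoxifylline (PTX) into the tumor, PTX_IT, were compared with the CONTROL_IT tumors across all autosomal and mitochondrial genes. The comparison held 7 of the 23 tumors of the series, 3 in PTX_IT and 4 in CONTROL_IT. Every one grew from 700000 B16-F1 cells, a mouse melanoma line, placed under the skin of the right flank of inbred DBA/2J mice aged 6 to 8 weeks. PTX_IT received PTX at 60 mg/kg and CONTROL_IT received DMSO, both by injection into the tumor, and the labels describe the mice as sex-matched. The edgeR test used below was fitted on all 15 tumors of the intratumoral route. Beside these 7, they were 4 NCTD_IT tumors, given norcantharidin at 3 mg/kg, and 4 MIX_IT tumors, given PTX at 60 mg/kg and norcantharidin at 3 mg/kg. B16 arose in C57BL/6 mice, so these were tumors of 1 cell line in a host of another inbred strain, and each library mixes RNA of tumor and host cells. RNA was read as 3′ mRNA tags in bulk. Genes on X and Y were left out, and 12066 of the 56748 genes in the table then had enough counts to be described (10777 protein-coding genes, 559 long noncoding RNAs, 536 pseudogenes and 16 mitochondrial genes).

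PTX is a methylxanthine that inhibits phosphodiesterases, the enzymes that break down cyclic AMP and cyclic GMP, and that also acts on adenosine receptors. Cyclic AMP activates protein kinase A, which phosphorylates the transcription factor CREB. In melanocytes this route leads from the receptor MC1R to MITF, the factor that drives pigment genes. In leukocytes PTX is known for lowering the production of TNF. The lists below follow this route from the enzymes to CREB and MITF, and then cover signalling, translation, energy metabolism and the cell types of a skin tumor.

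Libraries held between 3132604 and 4607703 counts. PTX_IT tumor 16 stood apart from its group: over all genes its log2 levels correlated at a mean r of 0.954 with the 4 controls and 0.901 with PTX_IT tumors 13 and 15, a description of libraries that share the same genes and kit. By the same measure PTX_IT tumor 13 was about as close to the controls (0.933) as to the other PTX_IT tumors (0.931), and CONTROL_IT tumor 10 was as close to the PTX_IT tumors (0.943) as to the other controls (0.940). The labelled melanoma was present in each tumor, since the 9 melanocyte and melanoma markers that passed the filter summed to between 28004 and 33008 CPM (counts scaled to the library total) in CONTROL_IT and to 33235, 26470 and 26093 CPM in PTX_IT. Host sex differed in spite of the labels. The X-inactivation RNA Xist had 33, 36 and 5 counts in PTX_IT tumors 13, 15 and 16 against 0, 1, 0 and 2 in CONTROL_IT tumors 9 to 12, while the Y-linked Ddx3y had 1, 0 and 0 counts against 4, 41, 24 and 14. For host cells, sex and PTX therefore cannot be told apart in any value of PTX_IT against CONTROL_IT below. In bulk RNA, fewer cells of a type and less RNA per cell also cannot be told apart.

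No gene passed the adjusted threshold of 0.05 in edgeR's quasi-likelihood test (0% of 12066), and the smallest adjusted p was 0.735. Without adjustment 737 genes had p below 0.05, which is 6.11% of those tested. Of these, 479 were higher in PTX_IT (3.97%) and 258 lower (2.14%), and 174 of the higher and 37 of the lower ones differed by 2-fold or more (1 on the log2 scale). DESeq2, fitted on the 2 groups alone, called 14 genes at an adjusted p below 0.05 (0.116%), and without adjustment 562 genes were higher (4.66%) and 388 lower (3.22%). The edgeR adjusted p of every gene named below was at least 0.735, and "the unadjusted threshold" stands for an edgeR p below 0.05 before adjustment. The groups did not overlap in 467 genes that were higher in every PTX_IT tumor (3.87%) and 489 that were lower (4.05%), and all 14 DESeq2 genes were among them. The median log2 fold change over all 12066 genes was 0.02, with quartiles of -0.23 and 0.31. The count of 737 was between 227, without PTX_IT tumor 15, and 1776, without PTX_IT tumor 16, when 1 tumor was left out. Without tumor 16, 910 genes were higher (7.21%) and 866 lower (6.86%), and 1 gene of 12616 passed the adjusted threshold (0.00793%). Tumor 16 was picked out from these same data as the PTX_IT tumor most like the controls. Larger differences without it follow in part from that choice and are not separate support. The counts of gene lists below are given with all tumors and without this tumor alone. In a fit with the Xist level (log2 CPM) as covariate, 219 genes had an unadjusted p below 0.05. Xist also differed within PTX_IT, at 9.18, 11.4 and 1.29 CPM in tumors 13, 15 and 16, while all 3 had at most 1 count of Ddx3y, so this term is no adjustment for host sex and follows tumors 13 and 15 more than tumor 16. The gene called without tumor 16 was Antxr2, a receptor of anthrax toxin and of collagen, named after its values were seen. Antxr2 stood at 64.8 and 101 CPM in PTX_IT tumors 13 and 15 and at 16 CPM in tumor 16, inside the control range of 15.4 to 20.8 CPM (edgeR adjusted p = 0.0331 without tumor 16).

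**Figure D1:**
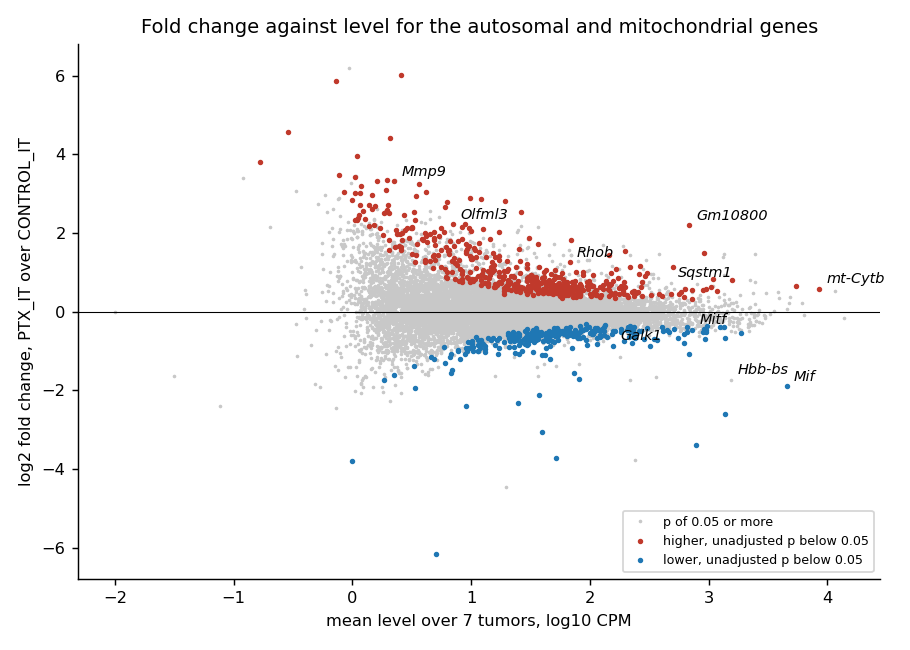
Each point is 1 of 12066 genes, with its mean level over the 7 tumors on the x axis (log10 CPM) and its log2 fold change of PTX_IT over CONTROL_IT on the y axis. The 479 higher (red) and 258 lower (blue) genes at an unadjusted p below 0.05 include low and abundant genes, and Mif lies at a high level with a log2 fold change of -1.89.

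The gene with the lowest DESeq2 adjusted p was Mif, which encodes macrophage migration inhibitory factor, a secreted cytokine that also has tautomerase activity. Mif lies on chromosome 10 at 75695187 to 75696074 (GRCm39, minus strand). Its level was 6177, 5785, 7101 and 7290 CPM in the CONTROL_IT tumors and 1226, 1623 and 2486 CPM in the PTX_IT tumors. All PTX_IT tumors lay below all controls, by a wide gap. The log2 fold change was -1.89 (SE 0.60, DESeq2 adjusted p = 1.17e-11), past the unadjusted threshold of edgeR as well. Mif has 9 processed pseudogenes in the table, to which reads of a near-identical copy could be assigned, but together they held 78 counts in the 7 tumors against 123751 for Mif. Ddt, which encodes D-dopachrome tautomerase, the closest relative of MIF, stood at 76.8, 53.7, 79.0 and 77.7 CPM in CONTROL_IT and 48.4, 43.8 and 58.6 CPM in PTX_IT. The groups overlapped through control tumor 10, and Ddt did not reach the threshold (log2 fold change -0.51, SE 0.27).

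Because PTX acts on cyclic AMP, the 250 bases before the RefSeq start sites (GRCm38.p6) were searched on both strands for the CREB palindrome TGACGTCA. It stood in the windows of 284 of 8906 tested genes with a window (3.19%), and among the 9 DESeq2 genes with one only in that of Mif. The E-box CACGTG, which MITF and the MYC family can bind, was in the windows of 905 genes (10.2%) and, among these 9, in that of Galk1. The antioxidant response element core TGACNNNGC was in the windows of 1258 genes (14.1%) and in those of Furin and Nudt3, and the amino acid response element TGATGCAA in those of 59 genes (0.662%) and in none of the 9. The windows of Mif (chr10:75860278-75860527, minus strand) and Galk1 (chr11:116012720-116012969, minus strand) are shown because these genes had the lowest DESeq2 p among the lower genes and the lowest edgeR p among them, with the motif in capitals. A match is a run of letters and not evidence of binding.
Mif: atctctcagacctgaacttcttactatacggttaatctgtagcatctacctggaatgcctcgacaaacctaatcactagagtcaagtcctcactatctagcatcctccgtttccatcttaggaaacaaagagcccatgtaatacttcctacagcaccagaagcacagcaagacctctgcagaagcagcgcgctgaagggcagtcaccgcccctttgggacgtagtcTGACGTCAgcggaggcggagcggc
Galk1: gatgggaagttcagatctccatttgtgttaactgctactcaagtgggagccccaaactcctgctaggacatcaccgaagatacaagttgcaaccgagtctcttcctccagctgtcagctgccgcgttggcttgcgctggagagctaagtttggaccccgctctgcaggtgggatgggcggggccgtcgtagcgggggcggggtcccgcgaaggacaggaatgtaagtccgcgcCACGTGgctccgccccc

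**Figure D2:**
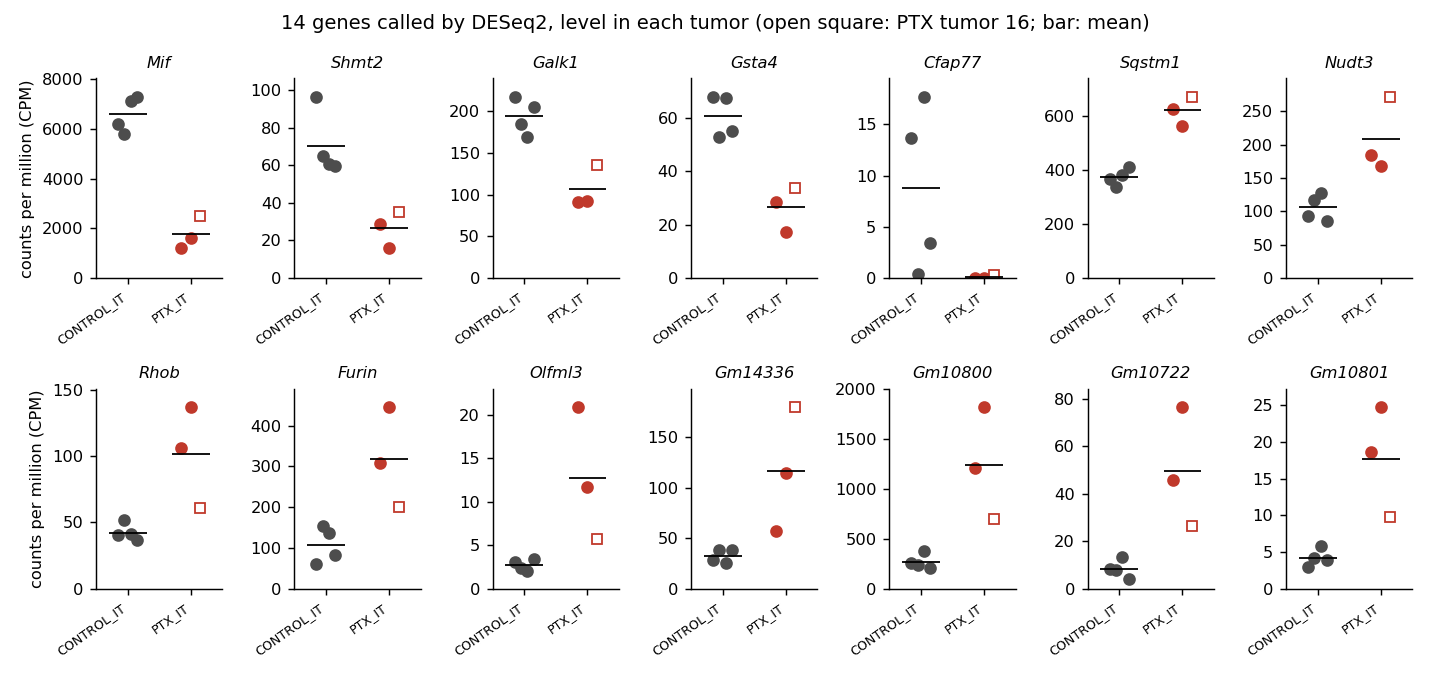
Level of the 14 genes called by DESeq2 in each tumor (y axis, CPM, starting at 0), with 4 CONTROL_IT tumors in gray and 3 PTX_IT tumors in red. Tumor 16 (open square) is the PTX_IT tumor nearest the controls in Mif, Shmt2, Galk1, Gsta4, Cfap77, Rhob, Furin, Olfml3 and the 3 satellite-type models, and the farthest from them in Sqstm1, Nudt3 and Gm14336, while no gene overlaps between groups.

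Galk1, which encodes galactokinase, the first enzyme of galactose use, was lower in PTX_IT. It stood at 218, 184, 169 and 205 CPM in CONTROL_IT and at 91.8, 92.3 and 136 CPM in PTX_IT, without overlap (log2 fold change -0.86, SE 0.21, DESeq2 adjusted p = 0.0388). Shmt2, the mitochondrial serine hydroxymethyltransferase of one-carbon metabolism, stood at 96.5, 64.9, 60.5 and 59.6 CPM in CONTROL_IT and 28.7, 16.2 and 35.4 CPM in PTX_IT (-1.39, SE 0.65, DESeq2 adjusted p = 0.0114). Shmt2 did not reach the unadjusted threshold of edgeR and was at 0.13 with Xist as a covariate. Gsta4, a glutathione transferase that clears lipid peroxidation products, stood at 68.0, 52.8, 67.6 and 55.0 CPM against 28.4, 17.4 and 33.6 CPM (-1.20, SE 0.45, DESeq2 adjusted p = 0.012). Cfap77, named for cilia and flagella, had 138 counts over the 4 controls and 1 count over the 3 PTX_IT tumors. The controls were uneven, at 13.6, 0.438, 17.7 and 3.40 CPM, and the ratio of control to PTX_IT was 91.5 with a 95% interval of 16.2 to 3640 that covers counting error only.

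Among the genes that were higher, Sqstm1 encodes p62, the receptor that delivers ubiquitinated cargo to autophagy. Sqstm1 stood at 368, 338, 381 and 410 CPM in CONTROL_IT and at 628, 563 and 672 CPM in PTX_IT, a narrow spread within both groups (log2 fold change 0.73, SE 0.35, DESeq2 adjusted p = 0.00243). It missed the unadjusted threshold of edgeR. Furin encodes a proprotein convertase of the secretory pathway, and its level was 59.6, 153, 137 and 83.7 CPM against 308, 445 and 200 CPM (1.55, SE 0.53, DESeq2 adjusted p = 0.0114). Rhob, a small GTPase of endosomes and the actin skeleton, stood at 40.2, 51.5, 41.3 and 36.6 CPM against 106, 137 and 61.0 CPM (1.25, SE 0.31, DESeq2 adjusted p = 0.0192). Tumor 16 was the PTX_IT tumor closest to the controls for both genes. Nudt3, a phosphatase of diphosphoinositol polyphosphates, was 92.7, 117, 128 and 85.1 CPM in CONTROL_IT and 185, 167 and 272 CPM in PTX_IT (0.98, SE 0.24, DESeq2 adjusted p = 0.038). Olfml3, a secreted olfactomedin-like matrix protein, was 3.03, 2.41, 2.02 and 3.40 CPM against 20.9, 11.7 and 5.68 CPM, and had the lowest edgeR p of all 12066 genes (2.22, SE 0.51, DESeq2 adjusted p = 0.0494). The pseudogene Gm14336 was 28.8, 38.6, 25.6 and 38.6 CPM against 56.8, 114 and 179 CPM (1.83, SE 0.76, DESeq2 adjusted p = 0.000428).

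The other 3 DESeq2 genes, Gm10800, Gm10722 and Gm10801, are from the list of satellite-type gene models, named for the tandem DNA of pericentromeric heterochromatin. Gm10800 stood at 263, 234, 379 and 205 CPM in CONTROL_IT and at 1211, 1820 and 699 CPM in PTX_IT (log2 fold change 2.20, SE 0.49, DESeq2 adjusted p = 8.12e-09). Gm10722 stood at 8.34, 7.89, 13.4 and 4.25 CPM against 45.6, 76.4 and 26.6 CPM (2.54, SE 0.55), and Gm10801 at 3.03, 4.17, 5.82 and 3.97 CPM against 18.6, 24.7 and 9.82 CPM (2.05, SE 0.53). All 6 models of this list that passed the filter were higher at an unadjusted p below 0.05, with a median log2 fold change of 2.16 against 0.02 over all genes. They are not 6 independent measurements. Gm10722 and Gm10800 each matched themselves best at a shift of 234 bases, with 82.5% and 67.2% identical bases, and the 2 models shared an exact run of 99 bases. Gm10801 did not have this repeat length across its span, since it matched itself best at a shift of 58 bases with 37.3% identical bases. It still shared an exact run of 86 bases with Gm10800. Both shared runs are shorter than the full reads that the study describes. Whether reads of one model were assigned to another was not tested. The 240 bases around the run of 99 bases are shown because the finding rests on sequence that occurs in several models. The shared run is in capitals (GRCm39, chr2:98497180-98497419, minus strand, and chr9:3000922-3001161, plus strand).
Gm10800: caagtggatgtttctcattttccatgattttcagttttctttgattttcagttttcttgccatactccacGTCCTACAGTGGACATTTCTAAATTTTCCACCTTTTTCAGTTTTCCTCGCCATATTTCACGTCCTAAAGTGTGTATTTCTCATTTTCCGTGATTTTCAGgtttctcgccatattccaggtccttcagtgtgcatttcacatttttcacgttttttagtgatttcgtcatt
Gm10722: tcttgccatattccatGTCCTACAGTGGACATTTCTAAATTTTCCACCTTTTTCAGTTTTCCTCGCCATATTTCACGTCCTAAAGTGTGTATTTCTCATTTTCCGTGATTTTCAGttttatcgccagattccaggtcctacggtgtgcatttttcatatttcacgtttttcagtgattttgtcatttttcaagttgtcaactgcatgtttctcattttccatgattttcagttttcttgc

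The rule for named genes took the 12 protein-coding genes with the lowest edgeR p in each direction whose groups did not overlap. Beside Olfml3, Nudt3, Rhob and the 3 satellite-type models, the higher genes were Cab39, Atrn, Bahcc1, Ahnak2, Mical3 and Gramd1b. Cab39, a scaffold of the kinase LKB1, stood at 79.8, 96.0, 80.5 and 73.2 CPM in CONTROL_IT and 124, 145 and 121 CPM in PTX_IT (log2 fold change 0.65, SE 0.15). Atrn, the attractin receptor that acts with agouti signalling in coat color, stood at 58.9, 57.7, 58.2 and 42.5 CPM against 93.0, 104 and 80.1 CPM (0.76, SE 0.19). In both genes tumor 16 was nearest to the controls, yet above all of them. The chromatin reader Bahcc1, the giant scaffold Ahnak2, the actin-oxidizing enzyme Mical3 and the sterol transporter Gramd1b had log2 fold changes of 0.73, 0.72, 0.67 and 0.89. Of the noncoding RNAs, Gm9320, ENSMUSG00000120992 and Gm49602 were highest by p, with log2 fold changes of 1.59, 0.64 and 1.45. The span of Gm9320 overlaps Tgif1 on the other strand, those of Bahcc1, Cfap77, Braf and Gstm5 also overlap other counted genes, and the strand setting of the counting is not given in the sources used here.

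The lower genes taken by the same rule had varied functions. Eif4ebp1, the mTOR-controlled inhibitor of cap-dependent translation, stood at 187, 120, 112 and 148 CPM in CONTROL_IT and 77.6, 68.8 and 93.0 CPM in PTX_IT (log2 fold change -0.83, SE 0.21). Mrps22, a protein of the small mitochondrial ribosomal subunit, stood at 62.7, 50.0, 44.8 and 61.3 CPM against 25.6, 12.0 and 38.5 CPM (-1.10, SE 0.29). Mrps12, of the same subunit, and Tefm, an elongation factor of mitochondrial transcription, had log2 fold changes of -0.74 and -0.86. Rnd2, a small GTPase, stood at 43.5, 23.0, 31.9 and 32.6 CPM against 12.5, 15.9 and 18.3 CPM (-1.07, SE 0.26), but its span overlaps the more abundant Vat1. Dhcr7, the last enzyme of cholesterol synthesis, Babam1 of the BRCA1-A complex and Bnc2, a zinc finger protein linked to pigmentation, had values of -1.10, -0.61 and -0.80. Dnai1, an axonemal dynein chain, had -0.76 and overlaps Enho. The lower noncoding genes were the pseudogenes Gm12497, Gm7206 and Rps13-ps1 at -1.0, -0.92 and -0.80. None of these genes was called by DESeq2, except Galk1 and Cfap77, which the same rule took.

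Of 20 genes named as phosphodiesterases, 13 passed the filter and 11 of these had a positive log2 fold change, with a median of 0.46. Which of their products PTX inhibits was not tested. Pde1c, Pde11a and Pde7a were higher at an unadjusted p below 0.05 and none was lower, against 3.97% of all genes. Pde11a, which cleaves both cyclic nucleotides and was the most abundant of the 3, stood at 197, 233, 210 and 193 CPM in CONTROL_IT and 297, 323 and 240 CPM in PTX_IT (0.46, SE 0.20). Pde7a, specific for cyclic AMP, was 45.2, 53.1, 64.0 and 55.3 CPM against 63.7, 72.6 and 88.3 CPM, where one control lay above the lowest PTX_IT tumor (0.46, SE 0.20). Pde1c, activated by calcium and calmodulin, was 7.83, 10.5, 6.33 and 10.2 CPM against 23.9, 16.8 and 9.30 CPM, where tumor 16 lay within the control range (0.93, SE 0.38). Pde4a, Pde8a, Pde5a and Pde4b had log2 fold changes of 0.58, 0.38, 0.54 and 0.01 and did not reach the threshold. With Xist as a covariate, Pde1c was at -0.44. Pde2a had no count in the 7 tumors, and neither had the adenosine receptor genes Adora1 and Adora2a. None of the adenosine receptor genes passed the filter.

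Downstream of cyclic AMP, 1 of 21 tested genes of the cyclic AMP and protein kinase A list was higher at an unadjusted p below 0.05. The share over all genes was 3.97%. That gene was Crebbp, a coactivator of CREB, at 65.7, 72.6, 81.0 and 54.2 CPM against 94.3, 88.1 and 82.9 CPM (log2 fold change 0.37, SE 0.18). Of 17 CREB target genes, 13 were positive with a median of 0.35, and 1, the differentiation inhibitor Id1, was higher at an unadjusted p below 0.05. Id1 stood at 1.26, 3.51, 4.05 and 3.12 CPM against 8.07, 13 and 5.68 CPM, a low level with no overlap (1.56, SE 0.65). The share of CREB targets that were higher was close to that of all genes. Of 19 immediate early genes, Jund alone was higher at that threshold (1.32, SE 0.52), also against 3.97% of all genes.

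The receptor and the transcription factor of the melanocyte route differed in direction. Mc1r, the melanocortin receptor that raises cyclic AMP, stood at 516, 495, 498 and 426 CPM in CONTROL_IT and 598, 773 and 599 CPM in PTX_IT (log2 fold change 0.44, SE 0.18). Mitf stood at 738, 698, 817 and 1026 CPM against 705, 551 and 529 CPM, where PTX_IT tumor 13 lay above the lowest control (-0.46, SE 0.19). Mitf passed the unadjusted threshold with all 3 PTX_IT tumors but not without tumor 16, where the difference was -0.39. Erbb3, a receptor of neuregulin, was 30.1, 25.4, 22.8 and 21.8 CPM against 37.0, 46.6 and 32.3 CPM (0.62, SE 0.24). None of 22 melanosome and pigment genes reached an unadjusted p of 0.05, and their median was -0.09. Tyr, Dct, Pmel, Tyrp1 and Mlana, the pigment enzymes and structural proteins, had log2 fold changes of 0.16, -0.15, -0.09, -0.05 and 0.21. Dct, the most abundant of these, stood at 17758, 12409, 14265 and 12890 CPM against 14283, 11234 and 13182 CPM, so the groups overlapped.

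Among the genes of the kinases that the study stained as proteins, Erbb2, Braf, Pik3ca, Akt1 and Mtor had log2 fold changes of 0.29 (SE 0.70), 0.19 (SE 0.27), -0.02 (SE 0.19), 0.16 (SE 0.36) and 0.32 (SE 0.23), and none reached an unadjusted p of 0.05. Each of these values lay within 1.5 SE of 0. Erbb2 was near the detection floor of 3 counts per library, at 3.79, 1.32, 3.80 and 2.55 CPM against 3.06, 0.317 and 6.97 CPM, and its span overlaps Mien1. In the PI3K, AKT and mTOR list, 3 of 26 genes were higher and 2 lower at an unadjusted p below 0.05, against 3.97% and 2.14% of all genes. Akt2, an AKT kinase of insulin signalling, stood at 39.2, 46.5, 42.8 and 44.0 CPM against 82.9, 82.4 and 40.8 CPM, with tumor 16 inside the control range (0.67, SE 0.23). Rictor, the defining subunit of mTOR complex 2, was 38.4, 53.5, 58.0 and 45.9 CPM against 69.6, 75.8 and 58.6 CPM (0.47, SE 0.18). The 2 lower genes act below mTOR complex 1: Eif4ebp1, given above, and the ribosomal S6 kinase Rps6kb2, at 16.7, 13.2, 11.9 and 16.7 CPM against 9.18, 7.61 and 9.82 CPM (-0.72, SE 0.28).

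Most genes of the translation machinery had negative log2 fold changes, and the smaller part of them reached the unadjusted threshold. Of 76 cytosolic ribosomal protein genes tested, 67 had a negative log2 fold change with a median of -0.26, and 13 were lower and none higher at an unadjusted p below 0.05, against 2.14% of all genes lower. Without PTX_IT tumor 16, 38 were lower and 1 higher, against 6.86% and 7.21% of all genes. Their summed level was 106838, 88247, 91555 and 95718 CPM in CONTROL_IT and 78725, 70117 and 99974 CPM in PTX_IT. Tumors 13 and 15 lay below every control and tumor 16 lay between them. Rpl10a, a protein of the large subunit, was 497, 359, 425 and 490 CPM against 256, 166 and 381 CPM (-0.73, SE 0.25). Rpl29 and Rps2 had log2 fold changes of -0.70 (SE 0.27) and -0.69 (SE 0.28). With Xist as a covariate, Rpl10a, Rpl29 and Rps2 were at 0.067, 0.24 and 0.35. Of 34 translation initiation factor genes, 29 were negative with a median of -0.25. At an unadjusted p below 0.05, 1 was lower, Eif1 (-0.38, SE 0.17), against 2.14% of all genes. Without tumor 16, 16 were lower, against 6.86%. Ribosomal protein genes have many near-identical pseudogenes, and how multi-mapped reads were counted is not given in the sources used here. The 85 ribosomal protein pseudogenes tested had a median of -0.19, with 5 lower and none higher.

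Mitochondrial genes lay on different sides of 0 by their genome of origin. Of 74 nuclear genes of the mitochondrial ribosome, 70 were negative, with a median of -0.28, and 9 were lower and none higher at an unadjusted p below 0.05, against 2.14% and 3.97% of all genes. Of 78 nuclear genes of oxidative phosphorylation, 64 were negative, with the same median of -0.28, and 11 were lower and none higher, against the same shares of all genes. Cyc1, cytochrome c1 of complex III, stood at 199, 132, 149 and 183 CPM in CONTROL_IT and 104, 75.5 and 136 CPM in PTX_IT (-0.66, SE 0.23), with tumor 16 above the lowest control. Atp5g1, a ring subunit of ATP synthase, stood at 157, 110, 141 and 167 CPM against 103, 79.9 and 93.0 CPM, without overlap (-0.65, SE 0.23). Mrpl46, which overlaps Mrps11, and Mrpl4 had log2 fold changes of -0.72 and -1.05, and Ndufs7 of complex I had -0.47. In contrast, 11 of the 13 protein genes of the mitochondrial genome were positive, with a median of 0.36, and mt-Co1 and mt-Cytb were higher at an unadjusted p below 0.05. Cytochrome b, mt-Cytb, stood at 8142, 7405, 6020 and 6621 CPM against 11520, 11096 and 9043 CPM, without overlap (0.58, SE 0.27). The cytochrome oxidase subunit mt-Co1 was 722, 1104, 792 and 791 CPM against 1164, 1644 and 1130 CPM (0.62, SE 0.26). The mitochondrial ribosomal RNA mt-Rnr2 was 1252, 1282, 1093 and 1133 CPM against 1983, 2911 and 1315 CPM (0.80, SE 0.33). The share of counts on the mitochondrial genome was between 2.42% and 2.68% in CONTROL_IT and 3.50%, 3.86% and 2.97% in PTX_IT, and the share on nuclear ribosomal RNA genes was 0.862% to 1.12% against 1.79%, 1.75% and 0.691%. The part of RNA quality in these results was not tested. With Xist as a covariate, mt-Co1 was at -0.029 and mt-Rnr2 at -0.47.

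**Figure D3:**
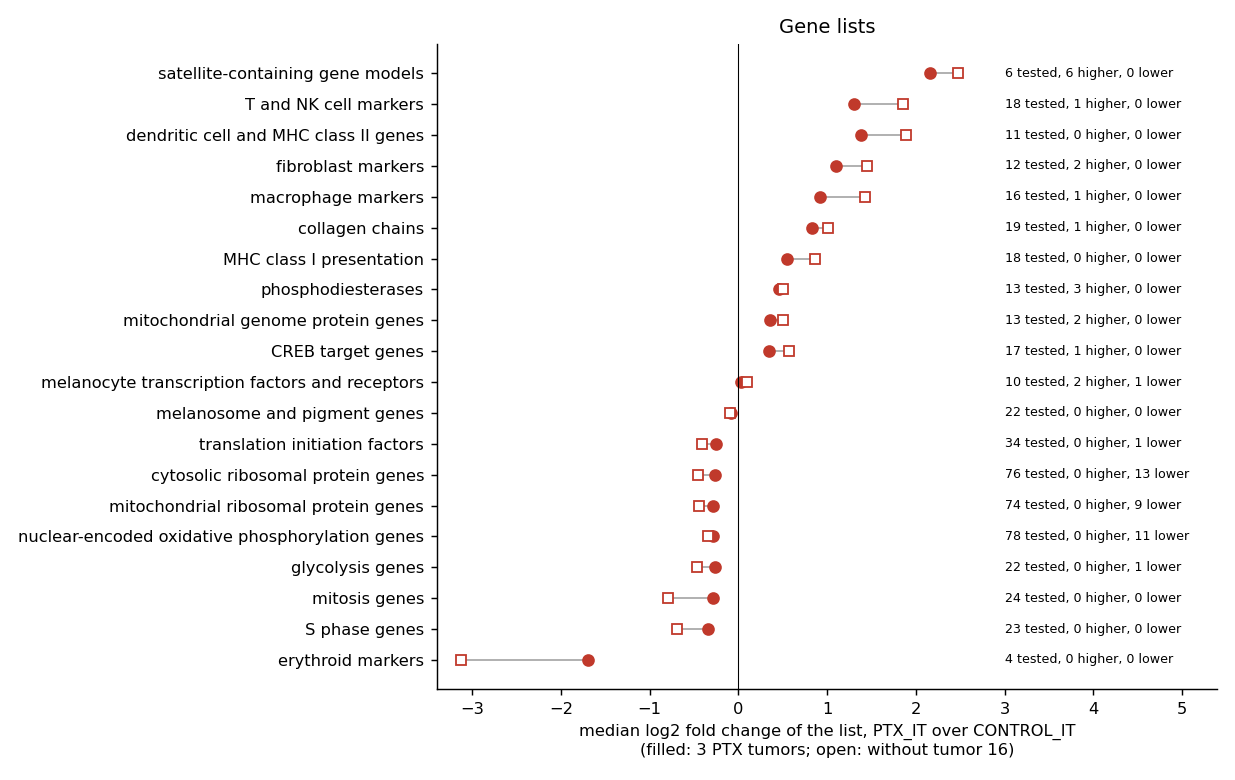
Median log2 fold change of 20 gene lists on the x axis, with all 3 PTX_IT tumors (filled) and without tumor 16 (open), and at the right the number of genes tested, higher and lower at an unadjusted p below 0.05. The satellite-type models lie farthest to the right at 2.16, the lists of T and NK cells, MHC class II, fibroblasts and macrophages lie between 0.92 and 1.39, and the translation and nuclear-encoded mitochondrial lists lie between -0.25 and -0.28.

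The cell cycle lists were low in tumors 13 and 15 but not in tumor 16. None of 23 S phase and 24 mitosis genes reached an unadjusted p of 0.05, with medians of -0.34 and -0.29. Without tumor 16, 4 and 10 of them were lower, against 6.86% of all genes. The mitosis genes summed to 3533, 2111, 2706 and 2628 CPM in CONTROL_IT and to 1817, 1513 and 3316 CPM in PTX_IT, so that tumor 16 had the second highest sum of the 7. Pcna, the sliding clamp of DNA replication, was 277, 204, 237 and 267 CPM against 128, 118 and 251 CPM (log2 fold change -0.57, SE 0.31). Cyclin B1, Ccnb1, had -0.63 (SE 0.45) and was at 131 CPM in tumor 16. Of 22 glycolysis genes, 17 were negative with a median of -0.27. At an unadjusted p below 0.05, 1 was lower, the aldolase gene Aldoa, against 2.14% of all genes. Tpi1, triosephosphate isomerase, stood at 2074, 1800, 2157 and 2383 CPM against 1423, 1277 and 1882 CPM and did not reach the threshold (-0.46, SE 0.23, and 0.020 with Xist as a covariate). In the p53 target list of 18 genes, 1 was higher at that threshold, against 3.97% of all genes. It was Mdm2, the ubiquitin ligase of p53 (0.43, SE 0.20).

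Of 29 genes of endoplasmic reticulum stress and the integrated stress response, 4 were lower and 2 higher at an unadjusted p below 0.05, against 2.14% and 3.97% of all genes. The 4 lower ones were Slc3a2, Chac1, Asns and Trib3, known targets of the transcription factor ATF4. Other genes of this response in the list did not reach the threshold, among them Phgdh and Psat1 of serine synthesis at -1.14 and -0.45, the amino acid transporter gene Slc7a5 at 0.46 and Atf3 at -0.06. Slc3a2, the heavy chain of amino acid exchangers, stood at 410, 393, 284 and 280 CPM in CONTROL_IT and 180, 280 and 176 CPM in PTX_IT (-0.69, SE 0.23). Tumor 15 lay next to the 2 lowest controls. Chac1, which degrades glutathione, was 33.6, 10.1, 5.57 and 6.24 CPM against 3.34, 2.22 and 2.32 CPM (-2.39, SE 0.91). Without CONTROL_IT tumor 9, the highest control, the value of Chac1 was -1.47. Asns, asparagine synthetase, was 129, 101, 116 and 122 CPM against 47.3, 33.6 and 113 CPM, with tumor 16 inside the control range (-0.85, SE 0.37). Trib3, a pseudokinase, had -1.0 (SE 0.46), and Ern1, which encodes the stress sensor IRE1, was higher at 0.59 (SE 0.25). In the list of 26 glutathione and thioredoxin genes, Gsta4, Gstp1 and Gstm5 were lower and Txnip was higher at an unadjusted p below 0.05. The shares of all genes were 2.14% and 3.97%. Gstp1 split the controls, at 161, 99.3, 2254 and 2607 CPM, and was 239, 69.8 and 58.9 CPM in PTX_IT. Its log2 fold change of -3.38 (SE 1.40) therefore rests on CONTROL_IT tumors 11 and 12. Txnip, an inhibitor of thioredoxin and of glucose uptake, was 230, 563, 269 and 254 CPM against 753, 1241 and 171 CPM (1.13, SE 0.46), so tumor 16 lay below all controls while tumors 13 and 15 lay above them. In the hypoxia list of 23 genes, 17 had a negative log2 fold change, with a median of -0.06. At an unadjusted p below 0.05, 1 was higher, against 3.97% of all genes, and none was lower. The higher gene was Epas1, the hypoxia-inducible factor 2 alpha (0.86, SE 0.35).

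Few inflammatory genes beside Mif reached the unadjusted threshold. Of 15 tested genes of TNF and the inflammatory cytokines, 10 were positive with a median of 0.47, and Mif was the 1 gene past the unadjusted threshold. Tnf had a log2 fold change of 0.95 (SE 0.91). Of 19 NF-kappa B subunits and feedback genes, 17 were positive with a median of 0.43. Vcam1 and Nfkbiz were higher at an unadjusted p below 0.05, against 3.97% of all genes. Vcam1, an adhesion molecule for leukocytes, stood at 1.26, 9.21, 7.09 and 3.69 CPM in CONTROL_IT and 38.1, 74.5 and 1.55 CPM in PTX_IT (2.81, SE 0.96), with tumor 16 near the lowest control. Nfkbiz, an atypical inhibitor of NF-kappa B, was 10.6, 16.2, 13.2 and 12.8 CPM against 27.0, 23.5 and 16.5 CPM (0.76, SE 0.32). None of 24 chemokine genes, 28 type I interferon response genes, 14 interferon-inducible GTPases and 18 genes of MHC class I presentation reached an unadjusted p of 0.05. Their medians were 0.61, 0.10, 0.41 and 0.55.

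The median log2 fold changes of the T and NK cell, dendritic cell, macrophage and fibroblast marker lists were positive, and their sums overlapped between the groups. Positive medians with overlapping sums were also found for B and plasma cells (1.42 over 3 genes) and skeletal muscle (1.41 over 5 genes). The same held for adipocyte markers (0.60 over 5 genes) and endothelial markers (0.42 over 13 genes). The pericyte and smooth muscle list was near 0, with a median of -0.03 over 9 genes, 4 positive and 5 negative, and none past the threshold. All 18 T and NK cell markers tested were positive with a median of 1.30. At an unadjusted p below 0.05, 1 was higher, the T cell receptor chain gene Cd3e, against 3.97% of all genes. The T and NK cell markers summed to 9.85, 372, 64.3 and 39.7 CPM in CONTROL_IT tumors 9 to 12 and to 271, 409 and 21.4 CPM in PTX_IT. Control tumor 10 was thus as high as tumors 13 and 15, and tumor 16 as low as the other controls. All 11 genes of dendritic cells and MHC class II were positive with a median of 1.39, and none reached the threshold, with sums of 83.4, 3690, 697 and 553 CPM against 3682, 5753 and 222 CPM. Of 16 macrophage markers, 15 were positive with a median of 0.92. At that threshold 1 was higher, Trem2, a lipid receptor of macrophages, against the same 3.97% of all genes. Trem2 stood at 1.52, 7.67, 0.759 and 3.40 CPM against 20.3, 22.8 and 2.32 CPM (2.15, SE 0.68), and C1qa of complement at 4.30, 34.2, 10.9 and 9.36 CPM against 82.4, 112 and 3.36 CPM (2.14, SE 1.01). The macrophage markers summed to between 1643 and 3112 CPM in CONTROL_IT and to 4709, 4137 and 1264 CPM in PTX_IT. Without tumor 16, 7 of the 16 were higher, against 7.21% of all genes. With Xist as a covariate, Trem2, C1qa and Cd3e were at -2.13, -2.57 and -0.72. The 4 hemoglobin genes of the erythroid list were negative with a median of -1.70 and none reached the threshold. Hbb-bs, beta globin, was 4631, 860, 1195 and 2086 CPM against 177, 174 and 1636 CPM. All 4 hemoglobin genes were lower at an unadjusted p below 0.05 without tumor 16, against 6.86% of all genes.

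**Figure D4:**
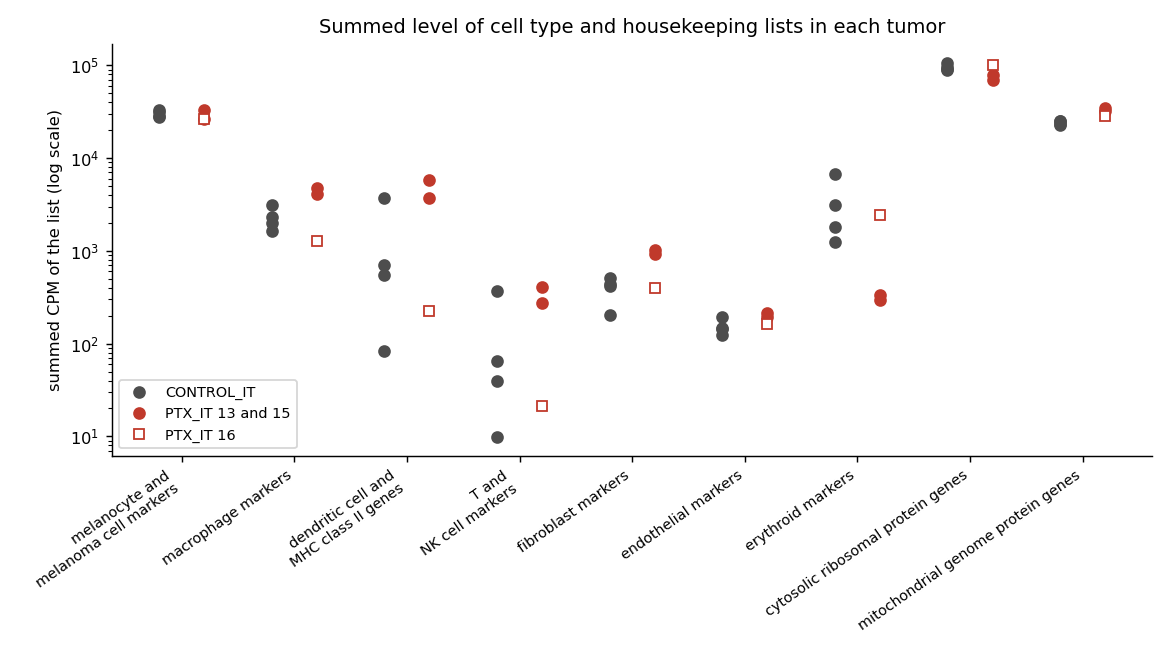
Summed CPM of 9 gene lists in each tumor on a log y axis, with CONTROL_IT in gray and PTX_IT in red (tumor 16 as an open square). PTX_IT tumors 13 and 15 lie at 4709 and 4137 CPM for macrophage markers and tumor 16 at 1264 CPM below all controls, whereas the melanocyte markers lie between 26093 and 33235 CPM in all 7 tumors.

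Most matrix genes also had positive log2 fold changes. Of 19 collagen chain genes, 18 were positive with a median of 0.83. Of these 19, 1 was higher at an unadjusted p below 0.05, against 3.97% of all genes. It was Col5a3, a chain of type V collagen (10.1, 11.2, 10.9 and 15.6 CPM against 30.9, 22.8 and 17.8 CPM, log2 fold change 1.00, SE 0.38). Col1a1, of type I collagen, was 65.2, 148, 132 and 220 CPM against 423, 350 and 162 CPM and did not reach the threshold (1.14, SE 0.85). Lamc1, the gamma chain of laminin, was close within both groups, at 38.9, 42.1, 43.0 and 40.3 CPM against 64.3, 67.2 and 66.9 CPM (0.69, SE 0.19). Without tumor 16 the value was 0.67. Mmp9, the gelatinase of leukocytes and tumor stroma, was 0.505, 0.219, 0.759 and 0.284 CPM against 7.51, 6.02 and 0.517 CPM, with the controls and tumor 16 at or under the floor of 3 counts. Cttn, an actin-binding protein of invadopodia, was 295, 291, 283 and 259 CPM against 401, 419 and 324 CPM (0.44, SE 0.16). Lamc1, Mmp9 and Cttn were each the 1 higher gene at that threshold in their lists, of 25, 19 and 19 tested genes. The fibroblast markers summed to between 201 and 513 CPM in CONTROL_IT and to 1027, 932 and 395 CPM in PTX_IT, and Pdgfrb, a receptor of fibroblasts and pericytes, was higher without overlap (1.55, SE 0.61). The part of these cells in the matrix values was not tested. With Xist as a covariate, Col5a3 and Col1a1 were at -0.034 and -1.14.

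Of 10 nuclear long noncoding RNAs tested, 7 were positive, with a median of 0.32. The 2 RNAs Malat1 and Neat1 were higher at an unadjusted p below 0.05, against 3.97% of all genes. Malat1 stood at 76.1, 88.6, 76.7 and 96.7 CPM in CONTROL_IT and 192, 418 and 74.6 CPM in PTX_IT (log2 fold change 1.43, SE 0.50). Neat1, the scaffold of paraspeckles, was 164, 253, 189 and 234 CPM against 395, 583 and 210 CPM (0.91, SE 0.29). Tumor 16 lay below all controls in Malat1 and within them in Neat1, and with Xist as a covariate these RNAs were at -1.21 and -0.78. In the circadian list of 16 genes, 1 was lower at an unadjusted p below 0.05, against 2.14% of all genes. It was Nfil3, a repressor of the clock output, at 7.07, 12.9, 8.35 and 9.64 CPM against 2.50, 1.27 and 5.68 CPM (-1.57, SE 0.61). Cry1, a core repressor, was also lower in every PTX_IT tumor, at -0.64 (SE 0.33), and did not reach the threshold.

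To ask whether the route mattered, the PTX difference in the tumor route was set against that of the intraperitoneal route, in which 2 PTX_IP tumors (60 mg/kg) were compared with 2 CONTROL_IP tumors given saline. The labels name each route as a batch, so route, vehicle and batch cannot be told apart. Host sex was not balanced there either, since Xist had 0 and 55 counts in CONTROL_IP tumors 1 and 2 and 0 in both PTX_IP tumors, and Ddx3y had 29 and 3 counts against 54 and 15. The imbalance ran opposite to that of the tumor route, and its part in the route differences cannot be told apart from that of route. No gene had a route difference past the adjusted threshold in edgeR (0% of 12959, smallest adjusted p 0.514), and 664 had an unadjusted p below 0.05 (5.12%). DESeq2 on these 11 tumors called 11 of the 24009 autosomal and mitochondrial genes in its fit. Across 11662 genes the 2 sets of log2 fold changes had a Pearson's r of -0.10 and a Spearman coefficient of -0.14, where genes are not independent replicates. Of 719 genes at an unadjusted p below 0.05 in the tumor route, 296 (41.2%) had the same sign in the other route, compared with 44.6% of all genes. Galk1, 1 of the 11, had a log2 fold change of -0.86 (SE 0.21) in the tumor and 0.77 (SE 0.24) by the intraperitoneal route (DESeq2 adjusted p = 0.00297 for the difference). Also among the 11 were mt-Cytb, mt-Co2 and mt-Nd4, at 0.58, 0.51 and 0.48 in the tumor route against -0.66, -0.55 and -0.55. All 13 protein genes of the mitochondrial genome were negative by the intraperitoneal route, with a median of -0.55 against 0.36, and 7 differed between routes at an unadjusted edgeR p below 0.05. The cytosolic ribosomal protein genes went the other way, with a median of 0.24 by the intraperitoneal route against -0.27, and 23 of 75 differed at that threshold. The satellite-type models were higher by both routes, with medians of 2.16 and 2.47, and Sqstm1 had 0.73 (SE 0.35) and 0.76 (SE 0.32). Mif had -1.89 (SE 0.60) and -0.39 (SE 0.68), and their difference did not reach the unadjusted threshold.

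**Figure D5:**
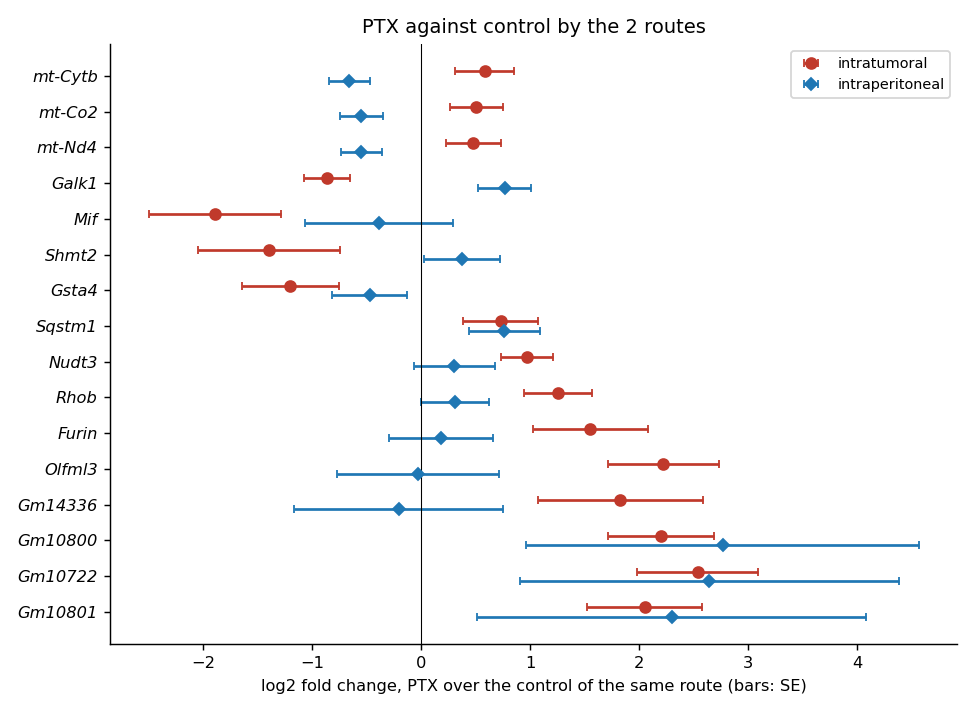
Log2 fold change of PTX over the control of the same route on the x axis, with its SE as a bar, for 16 named genes in the intratumoral (red circles) and intraperitoneal (blue diamonds) route. The 3 mitochondrial genes and Galk1 lie on opposite sides of 0 by route, while Sqstm1 and the satellite-type models Gm10800, Gm10722 and Gm10801 lie on the same side.

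PTX_IT was last compared with NCTD_IT, 4 tumors injected with norcantharidin at 3 mg/kg, an agent unrelated in structure to PTX. By Xist and Ddx3y these groups shared host sex, unlike the controls: NCTD_IT had 15 to 51 counts of Xist and 0 to 1 of Ddx3y. No gene differed at an adjusted p below 0.05 in edgeR (0% of 12066, smallest adjusted p 0.999). Without adjustment 458 had p below 0.05 (3.8%), of which 207 (1.72%) were higher and 251 (2.08%) lower in PTX_IT. DESeq2 on the 2 groups called 2 of the 22770 autosomal and mitochondrial genes in its fit. Mif was -0.55 (SE 0.58) in PTX_IT relative to NCTD_IT, a difference smaller than its SE. Against the same 4 controls, the log2 fold changes of Mif were -1.89 in PTX_IT, -1.34 in NCTD_IT and -0.91 in MIX_IT, which received both drugs. The MIX_IT tumors were like the controls in host sex, with 0 counts of Xist and 34 to 68 of Ddx3y. Drug and host sex therefore cannot be told apart in the PTX_IT and NCTD_IT values, or between these and the MIX_IT values. The MIX_IT values against the controls do not carry this difference in host sex. Gm10800 stood at 2.20, 2.82 and 0.91 and Rhob at 1.25, 1.24 and 1.12 in the same order. Sqstm1 stood at 0.73, 0.08 and 0.25. These comparisons share their control tumors, and the spread of those 4 tumors enters all of them.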

How the data were processed

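Tumor RNA was made into 3′ mRNA libraries with the Collibri kit. Per the labels and the study's methods, the authors checked reads with FastQC, trimmed them with Trimmomatic, and aligned and counted them with STAR 2.7.11b on GRCm39. The deposited values are raw counts per gene, with no normalization. Strand setting, treatment of multi-mapped reads and molecular identifiers are not given in the sources used here. Library totals of the 7 tumors ran from 3132604 to 4607703 counts, and tumor number and depth limit the precision of low genes.

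Counts were analysed in R 4.3.3. Genes were filtered with filterByExpr (minimum count 10, total 15) over the 15 IT tumors, scaled by TMM and tested with edgeR 4.0.16 (robust quasi-likelihood, 1 model of 4 groups). P-values are two-sided, and Benjamini-Hochberg adjustment ran over all 12480 genes tested, X and Y included. CPM values are TMM-scaled. SE is the log2 fold change divided by the root of the F statistic. DESeq2 1.42.0 on the 2 groups was an alternative, as were other scalings, filters, sample sets, Xist as a covariate and leaving out each tumor. Scripts were tested on simulated data. Counting floors are 3 counts per library, and counting intervals are exact (Clopper-Pearson) and cover counting error only.

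Named genes were the 12 protein-coding and 3 noncoding genes with the lowest p in each direction whose groups did not overlap (mean of at least 5 CPM), genes called by either tool, the genes of stained proteins, phosphodiesterases and adenosine receptors, and up to 4 members of each list by p. Tyr, Dct, Pmel, Tyrp1, Trib3, Phgdh, Psat1, Slc7a5, Atf3, Antxr2 and Tnf fell outside the rule and were named after their values were seen. A gene that the rule took is not reported here. The comparison and the gene lists were chosen with earlier results of these data known. The study describes an implant on the right flank of each mouse, but the sample labels used here name no mouse for each library. P-values measure only the spread between these samples. Promoter windows are from RefSeq (GRCm38.p6), and 9 of the 14 genes called by DESeq2 had one. Satellite-type sequence was read from GRCm39 at the coordinates of the count table.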

Additional observations from a re-analysis of the deposited data

Results flagged for a closer look

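Among 171 values tested, 10 had 1 CONTROL_IT tumor far from the other 3 (Dixon's ratio past its 95% critical value), and chance flags about 1 in 20. Control tumor 10 stood apart in 6 of them. Its T and NK cell markers summed to 372 CPM against 9.85 to 64.3 CPM in the others, its dendritic cell and MHC class II genes to 3690 CPM against 83.4 to 697 CPM, and its immediate early genes to 970 CPM against 668 to 689 CPM. In the same tumor Txnip was 563 CPM against 230 to 269 CPM, Mdm2 was 112 CPM against 93.7 to 95.9 CPM, and Ddt was 53.7 CPM against 76.8 to 79.0 CPM. Control tumor 9 stood apart in Shmt2 at 96.5 CPM against 59.6 to 64.9 CPM, in Chac1 at 33.6 CPM against 5.57 to 10.1 CPM and in the pseudogene Gm7206 at 123 CPM against 72.8 to 81.2 CPM. Control tumor 12 stood apart in Atrn at 42.5 CPM against 57.7 to 58.9 CPM.

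Xist, which is X-linked and so not among the genes described, was at a mean of 7.30 CPM in PTX_IT and at 0 to 0.567 CPM in the CONTROL_IT tumors.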

How the results depend on the processing

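The count of 0 genes past the adjusted threshold between PTX_IT and CONTROL_IT was also 0 with DESeq2 size factors, with the 7 tumors alone, with all 23 tumors, without X- and Y-linked genes, with protein-coding genes alone and with Xist as a covariate. It was 14 with DESeq2 on the 2 groups and 211 without the filter on low counts. In that fit the prior degrees of freedom were infinite, so that single genes had no spread of their own. Leaving out 1 tumor gave 0 to 1 genes, the 1 without PTX_IT tumor 16. The 737 genes at an unadjusted p below 0.05 became 1429 without the filter and 219 with Xist as a covariate, and 227 to 1776 when 1 tumor was left out. The lowest count came without PTX_IT tumor 15 and the highest without tumor 16, and the counts without CONTROL_IT tumor 9, CONTROL_IT tumor 12 and PTX_IT tumor 13 were 428, 433 and 487. With the 7 tumors alone, 54.0% of these genes were higher, against 65.0%, and with DESeq2 59.4%. DESeq2 called 11 genes for the difference between routes and 2 for PTX_IT against NCTD_IT, and leaving out any 1 tumor left both edgeR counts at 0. Of 1635 values of 110 named genes under the alternatives, 49 changed sign, 41 of them with Xist as a covariate. In that fit these log2 fold changes turned positive: Shmt2 0.13, Mrps12 0.0034, Gm7206 0.36, Rps13-ps1 0.038, Dct 0.20, Tyrp1 0.027, Asns 0.42, Rpl10a 0.067, Rpl29 0.24, Rps2 0.35, Pcna 0.22, Ccnb1 1.09, Tpi1 0.020, Hba-a1 0.22, Hbb-bs 0.46 and Trib3 0.11. These turned negative: Pde1c -0.44, Pde8a -0.34, Pde5a -0.13, Pde4b -0.68, Tyr -0.093, Mlana -0.17, Akt2 -0.21, Vcam1 -2.67, Txnip -1.57, mt-Co1 -0.029, mt-Nd4 -0.10, mt-Rnr2 -0.47, Col5a3 -0.034, Col1a1 -1.14, Trem2 -2.13, C1qa -2.57, Cd3e -0.72, H2-Ab1 -3.36, Id1 -0.11, Malat1 -1.21, Neat1 -0.78, Antxr2 -0.70, Epas1 -0.19, Mdm2 -0.048 and Ern1 -0.21. When 1 tumor was left out, 6 genes changed sign, over these ranges: Erbb2 -0.73 to 0.81, Pik3ca -0.11 to 0.071, Akt1 -0.12 to 0.32, Pde4b -0.17 to 0.10, Pmel -0.30 to 0.092 and Tyrp1 -0.19 to 0.12. The tumors left out were PTX_IT 16 for Erbb2, Akt1 and Pmel, PTX_IT 13 or CONTROL_IT 11 for Pik3ca, PTX_IT 15 or CONTROL_IT 11 for Pde4b, and PTX_IT 15 for Tyrp1. The cause of these changes was not tested. No paired analysis was possible because the replicate numbers in the labels run through the series and no number occurs in 2 groups. With 3 against 4 tumors, genes of a few CPM rest on few counts.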
